A study of Solanum lycopersicum with 12 samples.

Results

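The effect of salt on gene expression was compared between a pair of tomato genotypes, as the difference of their salt effects. For each probe set, the salt effect in Moneymaker (mean of the salt arrays minus mean of the unstressed arrays) was subtracted from the salt effect in PI365967. All 12 of the 12 arrays of the series and all 10101 probe sets tested entered this comparison. The arrays fell into 4 groups of 3: the cultivar Moneymaker without salt, Moneymaker with 200 mM NaCl, PI365967 without salt, and PI365967 with 200 mM NaCl, each for 5 h. PI365967 is known as a salt-tolerant wild tomato, although the labels list every sample as Solanum lycopersicum. All groups were whole plants with 6 leaves, moved from sand to an aerated quarter-strength Hoagland solution in a greenhouse and left to settle there for 3 d. No line carries a transgene or mutation in the labels. Each array took pooled RNA of 3 plants, and replicates were separate pools.

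Salt around the root first acts on a plant as a water deficit and later, as sodium enters the tissue, as an ion stress. Roots and leaves respond with hormones, above all abscisic acid (ABA), ethylene and jasmonate, and with mitogen-activated protein (MAP) kinases, which act on families of transcription factors such as DREB, NAC, WRKY and ERF proteins. Plants also pump protons to drive the exchange of sodium, regulate potassium channels, make protective proteins and solutes, and slow growth by turning down expansins and other wall-loosening genes. A difference of salt effects shows genes for which the genotypes moved by unequal amounts, whatever their levels were before salt.

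Signals are given as log2(value + 16) of the deposited intensity after quantile normalization, and every effect is a difference on that scale. A negative difference of salt effects means that the gene rose less, or fell more, in PI365967. Calls were made with limma where the p, adjusted by Benjamini and Hochberg's method across the 10101 probe sets, was under 0.05, and values after ± are its standard errors (n = 3 arrays per group). Replicate arrays correlated at Pearson's r of at least 0.9909 across probe sets, and the median standard error of the difference was 0.161. Signal up to the highest of 23 control probe sets with no tomato target (4.76 to 5.39 over the arrays) was taken as background. Of the array's control transcripts, those of actin, elongation factor 1-alpha, GAPDH and ubiquitin had no called difference of salt effects. A 3′ probe set listed as GlutTrans had one of −0.54 ± 0.12 (adjusted p = 0.0132), while its 5′ and middle probe sets, at −0.11 and −0.26, did not pass. The 25S ribosomal RNA rose by 1.91 in Moneymaker and differed by 0.82 in PI365967, and the difference of these effects was not called (adjusted p = 0.142). Whether probes bind PI365967 transcripts as well as Moneymaker transcripts was not tested. In whole plants, fewer cells of a type and less RNA per cell cannot be told apart.

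Salt effects differed between the genotypes on 1337 of 10101 probe sets, which is 13.2%. Of these, 716 (7.09% of all tested) had a lower and 621 (6.15%) a higher salt effect in PI365967. A difference of at least 1 in log2 was called on 379 probe sets (3.75%), 269 of them lower and 110 higher. Among probe sets that carry a gene name, 137 of 702 were called, or 19.5%. Lower effects made up 53.6% of the calls here, 64.6% when arrays were only centred on their medians, and 39.7% of 292 calls with no normalization between arrays. With no normalization the median difference over all probe sets was 0.30, against 0.04 here, so that directions there are read relative to that shift. Of 60 genes with a called difference that were chosen by size, opposite salt calls or rank within their list, 37 did not pass without normalization. The 23 that did were HSP17.4, LysRS, AOS, ACS6, PTI5, EREB, 20ox-3, ER24, PLDb1, NAC1, PTI6, TPX2, PT2, EXP5, CEVI57, EXP1, XET2, LHA1, cevi19, AMT1-2, EXP2, rnalx and PPCK1. Another 20 genes with called probe sets are described as members of their lists, and of these XTH7 alone passed without normalization. The slope-adjusted difference defined below was called on 47 of the named genes, and 28 of them did not pass without normalization.

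Most of the salt response had the same direction in both genotypes, and it was smaller in PI365967 by most measures. Salt called 57.0% of all probe sets in Moneymaker (26.0% up, 31.0% down) and 47.3% in PI365967 (23.3% up, 24.0% down). The SD of the salt effect over all probe sets was 0.82 in Moneymaker and 0.66 in PI365967. Among 1767 probe sets that rose in both genotypes, the rise was smaller in PI365967 on 64.8%, with a median ratio of the PI365967 effect to the Moneymaker effect of 0.852. Among 1991 that fell in both, the fall was smaller in PI365967 on 69%, with a median ratio of 0.82. A line through the origin, fitted by total least squares, gave a PI365967 effect of 0.772 times the Moneymaker effect. Ordinary least squares gave 0.674, and a line fitted the other way, with the Moneymaker effect as the response, corresponded to 0.962. The last was chosen after seeing the data. Genes picked for a large effect in one genotype also show which one was used to pick them. The 244 probe sets with a Moneymaker effect above 2 had median effects of 2.58 in Moneymaker and 1.75 in PI365967. The 115 probe sets with a PI365967 effect above 2 had nearly equal medians of 2.71 in Moneymaker and 2.48 in PI365967. On the side of falls, 139 probe sets with a Moneymaker effect below −2 had medians of −2.39 and −1.85, and 84 with a PI365967 effect below −2 had medians of −2.41 in Moneymaker and −2.44 in PI365967.

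**Figure D1:**
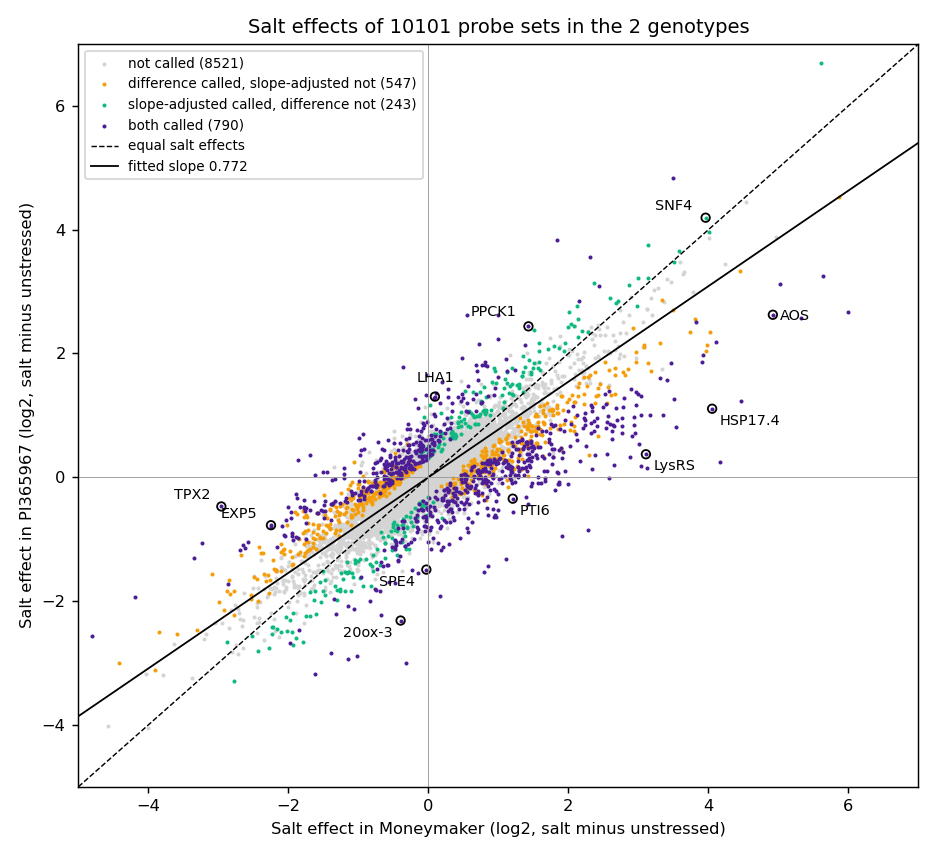
Salt effects (log2, salt minus unstressed) of the 10101 probe sets in Moneymaker (x axis) and PI365967 (y axis). Each point is a probe set, the dashed line marks equal effects, the solid line has the fitted slope of 0.772, and colours mark the 790 probe sets called for both the difference and the slope-adjusted difference, the 547 called for the difference alone and the 243 called for the slope-adjusted difference alone. LysRS and HSP17.4 lie far below both lines, and TPX2, EXP5, LHA1 and PPCK1 lie above both.

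To separate a generally smaller response from a response of another kind, the difference was also computed as the PI365967 effect minus 0.772 times the Moneymaker effect, here called slope-adjusted. It was called on 1033 probe sets (10.2% of those tested), 562 lower (5.56%) and 471 higher (4.66%). Of the 1337 calls of the plain difference, 790 (59.1%) were also called after adjustment, and these were 76.5% of the slope-adjusted calls. The other 547 were called only as plain differences. The size of this difference rests on the slope. Of the 243 probe sets called for it alone, all 243 passed with the slope of 0.674 and 25 with that of 0.962. Among the genes below, ETR6, ER21, NCED1, TAO3, SNF4, FESOD, TBG4, cel7, krp2, CrtR-b1, CHI14, CHI17 and IAA27 were called only after adjustment, and none of these 13 passed with 0.962. In the other direction, 10 genes lost their slope-adjusted call with 0.674, namely ACS3, AOS, ER66, ERF3, HT1, LE16, LHA2, MYC2, cevi19 and loxD. The slope-adjusted count fell to 656 without PI365967 unstressed replicate 1, 633 without PI365967 unstressed replicate 3, 657 without PI365967 salt replicate 1 and 630 without PI365967 salt replicate 2. It was nearly as low without Moneymaker salt replicate 1 (693), Moneymaker unstressed replicate 1 (694) or PI365967 unstressed replicate 2 (705). Over all single omissions it ran from 630 to 1021.

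Called differences took 5 forms. On 516 probe sets (38.6% of the calls) salt acted in the same direction in both genotypes but less in PI365967, 295 of them rises and 221 falls. On 502 (37.5%) only Moneymaker had a salt call, with 269 rises and 233 falls. On 167 (12.5%) only PI365967 had one, 91 rises and 76 falls, and on 82 (6.13%) both responded alike but more strongly in PI365967. Opposite calls were made on 67 probe sets (5.01%), of which 37 rose in Moneymaker and fell in PI365967. Without PI365967 salt replicate 2 the count of all opposite calls fell from 67 to 43. A further 3 called probe sets had no salt call in either genotype. After adjustment for the slope, 188 of all 2518 probe sets with a smaller response in the same direction in PI365967 were called, 184 of them among the 516. Of all 1240 with a larger response in the same direction, 281 were called, including the 82. Part of this shift is built into the adjustment, which subtracts less than the full Moneymaker effect.

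**Figure D2:**
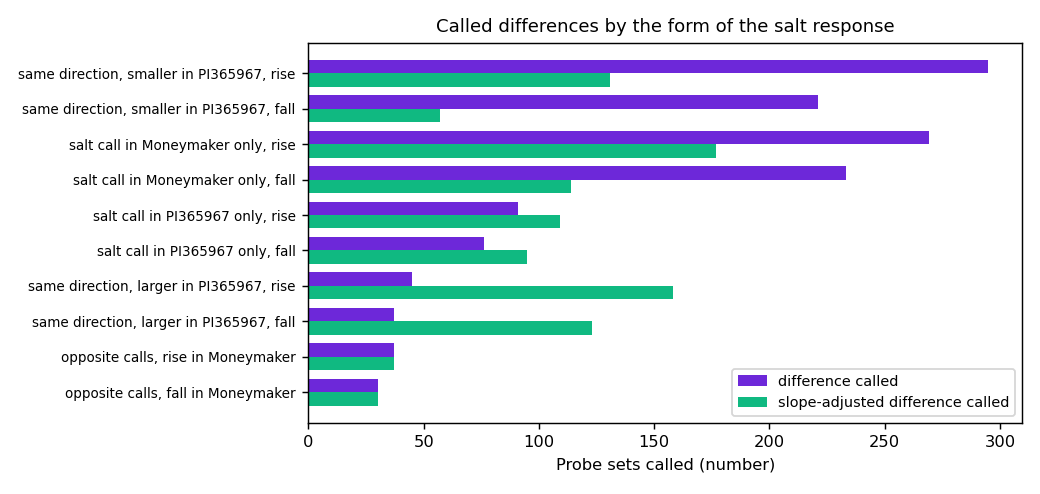
Number of probe sets with a called difference of salt effects (purple) and with a called slope-adjusted difference (green), by the form of the salt response and by rise or fall under salt. The opposite calls number 37 and 30 in both tests, which the sorting by called effects of opposite sign largely fixes. The responses larger in PI365967 gain most calls with the adjustment. Part of that gain is built in, as the adjustment subtracts less than the full Moneymaker effect.

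The genotypes stood apart at different points of the experiment. A genotype difference was called on 36.8% of all probe sets without salt and 49.1% with salt. Of the 1337 called probe sets, 647 (48.4%) differed between genotypes only under salt, compared with 22.3% of all probe sets. A further 258 (19.3%, compared with 10.0% of all) differed only without salt, so that salt brought the genotypes to levels whose difference was not called. On 301 (22.5%, compared with 25.6%) they differed in both conditions with the same sign. On 122 (9.12%, compared with 1.21%) the sign turned over. These sortings use the same 12 arrays as the difference itself and are a description. In all, 69 called probe sets lay at background in at least 1 group.

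Genes of the ethylene pathway were among the largest named differences. Ethylene is made from ACC by ACC synthases, is sensed by receptors that act through the kinase CTR1, and acts through EIL and ERF transcription factors. Of 13 probe sets for ethylene synthesis, 3 (23.1%, against 13.2% of all probe sets) were called, each of them lower in PI365967, and the list's median difference was −0.24 against 0.04 over all probe sets. All 3 were ACC synthases. ACS6 read 7.40, 7.30 and 7.70 on the unstressed and 10.82, 10.16 and 10.26 on the salt arrays of Moneymaker. The PI365967 arrays gave 7.72, 7.53 and 7.54 without and 7.91, 8.11 and 8.94 with salt. The genotypes overlapped without salt and were fully apart with salt, where every Moneymaker array was above every PI365967 array. The rises of ACS6 by 2.95 in Moneymaker and 0.72 in PI365967 differed by −2.22 ± 0.35 (adjusted p = 0.00223), and by −1.55 after slope adjustment (adjusted p = 0.011). ACS3 rose by 2.34 and 1.13 (difference −1.21 ± 0.19, adjusted p = 0.00223). Its unstressed level was higher in PI365967 by 1.00, and with salt the genotypes differed by −0.21 (adjusted p = 0.219). ACS1A rose by 1.42 and 0.86, and its call did not survive the omission of any 1 of 6 arrays (−0.57 to −0.48). The most strongly raised ACC synthase in Moneymaker, ACS2, rose by 3.63 and 3.29, and its difference of −0.34 did not pass (adjusted p = 0.424).

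Of 15 probe sets for ethylene perception and signalling, 1 was called lower and 1 higher, a share of 13.3% beside 13.2% of all probe sets. CTR1, the kinase that keeps the pathway off while receptors are free of ethylene, rose by 1.19 in Moneymaker and had an effect of 0.12 in PI365967 that did not pass (adjusted p = 0.386). The difference was −1.06 ± 0.16 (adjusted p = 0.00152) on a probe set whose probes may also bind related transcripts. EIL2, a transcription factor downstream of the receptors, fell by 0.27 in Moneymaker alone, and its call (difference 0.38 ± 0.10) was lost with median centring (0.29) and without any 1 of 9 arrays (0.33 to 0.40). The receptor gene ETR6 is the reverse case. It rose by 2.14 in Moneymaker and 2.55 in PI365967, and the plain difference of 0.42 did not pass (adjusted p = 0.145). Its rise in PI365967 exceeded the fitted slope of 0.772 by 0.90 (adjusted p = 0.0057), and the slope of 0.962 by 0.50 (adjusted p = 0.0847).

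Among 21 probe sets of ethylene-responsive genes, 8 had a lower and 1 a higher salt effect in PI365967, and 6 were lower after slope adjustment. The called share was 42.9%, against 13.2% of all probe sets (7.09% lower, and 5.56% lower after slope adjustment), and without normalization 4 lower calls were made. The list's median difference was −0.10. ERF-type transcription factors led it. PTI4, PTI5 and PTI6 are ERF proteins first found through their binding to the tomato disease-resistance kinase Pto. PTI5 read 8.92, 9.16 and 8.40 without and 11.85, 11.57 and 11.36 with salt in Moneymaker. The PI365967 arrays read 8.56, 8.75 and 9.16 without and 9.52, 9.40 and 9.69 with salt. The genotypes overlapped without salt, and under salt Moneymaker was well above. The rises of 2.77 and 0.71 differed by −2.05 ± 0.29 (adjusted p = 0.00122; slope-adjusted −1.42, adjusted p = 0.00721). PTI4 rose by 1.65 in Moneymaker and had an effect of 0.31 in PI365967 that did not pass (difference −1.34 ± 0.24, adjusted p = 0.00458). PTI6 moved in opposite directions. It read 9.53, 9.65 and 9.64 without and 10.93, 10.89 and 10.61 with salt in Moneymaker, against 9.65, 9.56 and 9.62 without and 9.31, 9.33 and 9.16 with salt in PI365967. The unstressed genotypes had means of 9.61 and 9.61, and after salt every array of each genotype had left its unstressed range, up in one and down in the other. PTI6 rose 2.3-fold in Moneymaker and fell to 0.787 of its level in PI365967, a log2 difference of −1.55 ± 0.13 (adjusted p = 7.98e-05) and −1.28 after slope adjustment (adjusted p = 0.000209), the latter not called without normalization (−0.98, adjusted p = 0.0812).

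EREB, another ethylene-responsive element binding protein gene, read 6.86, 6.77 and 6.65 without and 9.89, 9.72 and 9.50 with salt in Moneymaker, and 5.59, 6.01 and 5.30 without and 6.35, 6.69 and 6.81 with salt in PI365967. Moneymaker was above PI365967 in both conditions, and the gap grew from −1.13 to −3.09. The salt effects of 2.94 and 0.98 differed by −1.96 ± 0.25 (adjusted p = 0.000647). ER24, a transcriptional coactivator gene, rose by 3.98 and 2.13. Its difference of −1.85 ± 0.32 was called (adjusted p = 0.00426) but was not called beyond the slope (−0.94, adjusted p = 0.0629). ERF3 rose by 1.95 and 0.92 (difference −1.03 ± 0.14, adjusted p = 0.00121). ERF2 rose by 0.44 in Moneymaker alone (difference −0.47, adjusted p = 0.0374), and ER66 rose by 0.47 in Moneymaker alone (difference −0.44, adjusted p = 0.0213). The ERF2 call did not survive the omission of any 1 of 10 arrays (−0.51 to −0.40), and the ER66 call without either of 2 arrays (−0.44 to −0.42). The higher call was ER69, at 0.32, which was lost without any 1 of 11 arrays (0.29 to 0.33) and with median centring (0.12). One probe set of ER21 exceeded the slope in PI365967 by 0.65 (adjusted p = 0.0316), with rises of 1.86 and 2.09, and its other probe set did not (−0.07, adjusted p = 0.901).

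Jasmonate, the wound hormone, is made from fatty acids by lipoxygenases, allene oxide synthase and later enzymes. Of 16 probe sets of this list, 2 were called lower and 2 higher (25% in all, against 13.2% of all probe sets), with a median of −0.05. Both lower calls were early enzymes of the pathway. AOS, the allene oxide synthase gene, read 5.72, 6.34 and 6.27 without and 11.14, 11.01 and 10.95 with salt in Moneymaker. In PI365967 it read 6.72, 6.99 and 6.65 without and 9.09, 9.34 and 9.81 with salt. It was slightly lower in Moneymaker before salt and clearly higher there after it, with no overlap in either condition. The rises were 30.3-fold in Moneymaker and 6.17-fold in PI365967, and the log2 effects differed by −2.29 ± 0.28 (adjusted p = 0.000468; slope-adjusted −1.18, adjusted p = 0.0135). Its slope-adjusted call was lost without normalization (−0.74, adjusted p = 0.326) and with the slope of 0.674 (−0.69, adjusted p = 0.0842). The lipoxygenase gene loxD rose by 2.59 and 1.39 (difference −1.19 ± 0.17, adjusted p = 0.0011). Its slope-adjusted difference of −0.60 was called (adjusted p = 0.0267), and that call did not survive the omission of any 1 of 4 arrays (−0.61 to −0.46). The next enzymes, AOC and OPR3, had differences of −0.47 and −0.31 that did not pass (adjusted p = 0.117 and 0.221). OPR1, which encodes an oxophytodienoate reductase, fell by 1.74 in Moneymaker and 1.18 in PI365967 (difference 0.56 ± 0.11, adjusted p = 0.00901). TomloxE, another lipoxygenase gene, rose more in PI365967 (difference 0.64 ± 0.18). This call was lost with median centring (0.61) and without any 1 of 9 arrays (0.60 to 0.68).

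Stress transcription factors outside the ethylene list had 8 lower and 1 higher call among 20 probe sets, with a median of −0.50. That is a called share of 45%, against 13.2% of all probe sets (7.09% lower and 6.15% higher), and without normalization 1 lower call, that of NAC1, was made. After adjustment for the slope, 4 lower calls and 1 higher call were made, against 5.56% lower and 4.66% higher of all probe sets. NAC1, of the NAC family, read 10.30, 10.53 and 10.24 without and 12.88, 12.69 and 12.71 with salt in Moneymaker, and 10.63, 10.82 and 10.72 without and 11.36, 11.38 and 11.94 with salt in PI365967. All unstressed Moneymaker arrays were below the PI365967 arrays, but the genotype difference of 0.37 did not pass the test (adjusted p = 0.0685). With salt NAC1 was higher in Moneymaker. It rose by 2.41 and 0.84, a difference of −1.57 ± 0.21 (adjusted p = 0.000757). WRKYIId-1, of the WRKY family, rose by 1.73 and 0.62 (difference −1.11 ± 0.10, adjusted p = 0.000149). DREB3, of the family that binds dehydration-responsive elements, rose by 1.5 and 0.51 (difference −0.99 ± 0.17, adjusted p = 0.00376). NAC1, WRKYIId-1, DREB3 and MYC2 were also lower after slope adjustment. MYC2, a regulator of jasmonate responses, rose by 0.55 in Moneymaker alone (difference −0.67, adjusted p = 0.0254), a call lost without any 1 of 3 arrays (−0.68 to −0.61).

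AREB1, JA2 and GBF4 were called as plain differences and not beyond the slope. AREB1, which binds ABA-responsive elements, rose by 3.08 in Moneymaker and 2.13 in PI365967. Its difference of −0.95 ± 0.17 was called (adjusted p = 0.00429), and its slope-adjusted difference of −0.25 was not (adjusted p = 0.33). JA2, a NAC gene, rose by 2.58 and 1.74 (difference −0.84, adjusted p = 0.0237; slope-adjusted −0.25, not called), and its call did not survive the omission of any 1 of 3 arrays (−0.79 to −0.74). GBF4, a G-box binding factor gene, was called lower on both of its probe sets, at −1.03 ± 0.20 and −0.58, with rises in both genotypes. The second of these calls was lost without either of 2 arrays (−0.56 to −0.53). DREB1 rose by 3.37 and 2.83, and abz1 by 2.57 and 2.00. Neither difference passed (−0.54, adjusted p = 0.229, and −0.57, adjusted p = 0.0836). The higher call was HY5, a light-signalling bZIP gene, which rose by 0.75 in PI365967 alone (difference 0.58 ± 0.12, adjusted p = 0.0092).

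ABA itself is made through NCED1, the 9-cis-epoxycarotenoid dioxygenase, and aldehyde oxidases. None of the 5 probe sets of ABA synthesis had a called difference, against 13.2% of all probe sets. A list of 5 is too short for this to show that the genotypes were alike. After slope adjustment 1 was higher and 1 lower, against 4.66% and 5.56% of all. NCED1 rose by 3.58 in Moneymaker and 3.66 in PI365967, and the difference of 0.08 ± 0.26 did not pass (adjusted p = 0.874). Against the slope, its rise in PI365967 was 0.89 larger (adjusted p = 0.0327). This excess was 0.22 with the slope of 0.962 (adjusted p = 0.625) and 0.76 with that of 0.81, from probe sets called alike in both genotypes (adjusted p = 0.064). The aldehyde oxidase gene TAO3 fell by 0.60 in PI365967 alone, a slope-adjusted difference of −0.58 (adjusted p = 0.0473).

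All 5 probe sets for ABA- and water-stress-induced proteins rose in both genotypes, and 2 (40%, against 13.2% of all probe sets) were called lower in PI365967, where the list's median difference was −0.52. Without normalization neither was called. LE16, a lipid transfer protein gene, read 10.68, 10.74 and 11.03 without and 12.52, 12.28 and 12.25 with salt in Moneymaker, and 12.30, 12.20 and 12.20 without and 12.96, 12.89 and 12.92 with salt in PI365967. Its unstressed PI365967 arrays lay close to the salt arrays of Moneymaker, and the genotypes did not overlap in either condition. The rises of 1.54 and 0.69 differed by −0.85 ± 0.14 (adjusted p = 0.00362). Its slope-adjusted difference of −0.50 was called (adjusted p = 0.0342) and lost without any 1 of 9 arrays (−0.54 to −0.42). TSW12, also a lipid transfer protein gene, rose by 0.61 and 0.27, and its call (difference −0.34 ± 0.09) was lost without any 1 of 9 arrays (−0.36 to −0.30). The dehydrin gene TAS14 rose by 1.60 and 1.08 (difference −0.52, adjusted p = 0.0861), LEA14 by 1.04 and 0.86 and ER5 by 3.19 and 2.62, with no called difference.

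In the signalling list, 4 of 14 probe sets (28.6%, against 13.2% of all) were called, each of them lower, and 3 of the 4 belong to MPK3, a MAP kinase gene. Without normalization no probe set of this list was called. On the brightest of these, whose probes may also bind related transcripts, the arrays read 8.95, 9.20 and 8.70 without and 11.01, 10.83 and 10.59 with salt in Moneymaker. In PI365967 the same probe set read 8.80, 8.80 and 9.04 without and 9.30, 9.31 and 9.36 with salt. The genotypes overlapped without salt, and the rise was small but without overlap in PI365967. The effects of 1.86 and 0.44 differed by −1.42 ± 0.19 (adjusted p = 0.000946; slope-adjusted −1.0, adjusted p = 0.00556). Its slope-adjusted difference was −0.67 without normalization (adjusted p = 0.434). The other MPK3 probe sets differed by −1.34 (adjusted p = 0.000542) and −0.94 (adjusted p = 0.0102). The MAP kinase kinase genes MKK2, MKK3, MKK4 and MEK1 had differences of −0.32, −0.49, −0.35 and −0.24, and none passed. The NADPH oxidase gene Wfi1 rose by 1.26 and 0.76 (difference −0.50, adjusted p = 0.0631). CDPK1, a calcium-dependent protein kinase gene, fell by 0.33 in PI365967 alone, and its difference of −0.34 ± 0.10 was lost without any 1 of 10 arrays (−0.37 to −0.30).

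**Figure D3:**
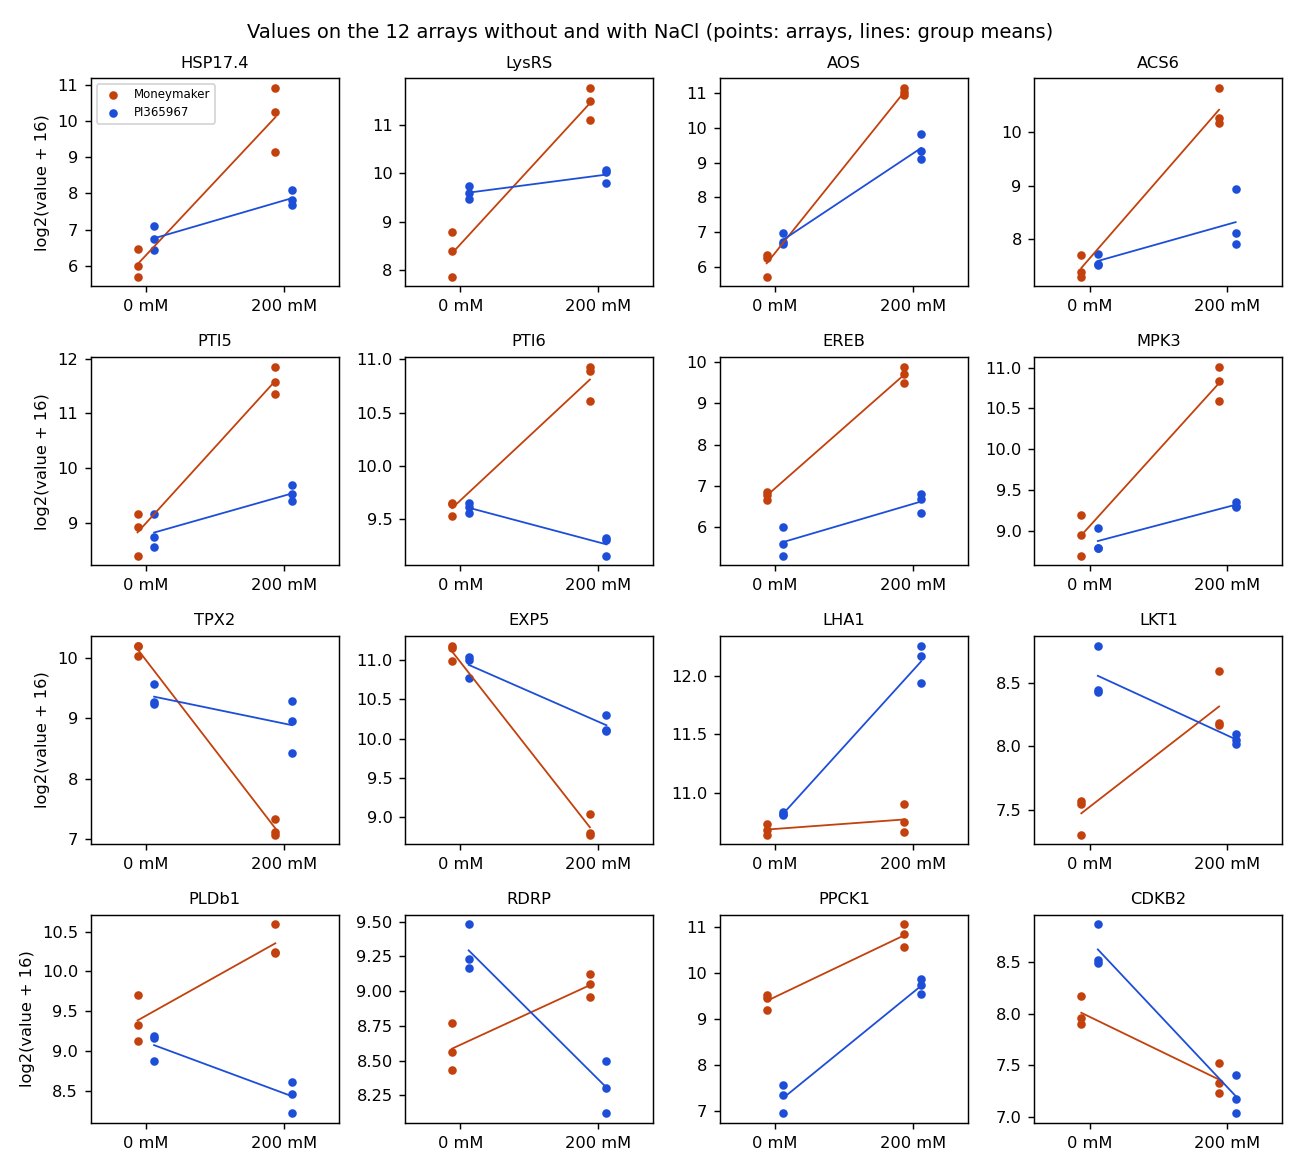
Values of 16 named genes on all 12 arrays as log2(value + 16), without salt (0 mM) and with 200 mM NaCl, for Moneymaker (orange) and PI365967 (blue). Points are arrays, lines join group means, and each panel has its own axis, so that slopes compare within a panel. Lines run in opposite directions for PTI6, PLDb1, RDRP and LKT1, and for LHA1 the rise of PI365967 stands against a nearly level Moneymaker line.

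The largest difference of a named gene in the normalized intensities was that of HSP17.4, a small heat shock protein gene. In the authors' second set of log2 values its difference was −1.99 and that of LysRS was larger, at −2.76. HSP17.4 read 6.46, 5.70 and 5.99 without and 10.91, 10.24 and 9.15 with salt in Moneymaker. Its PI365967 arrays gave 6.75, 6.45 and 7.09 without and 7.83, 8.10 and 7.68 with salt. The salt arrays of Moneymaker were the highest and also the most spread, and both genotypes rose without overlap. HSP17.4 rose 16.6-fold in Moneymaker and 2.15-fold in PI365967, which on the log2 scale differ by −2.95 ± 0.52 (adjusted p = 0.00433). Its slope-adjusted difference of −2.02 (adjusted p = 0.0207) was lost without PI365967 unstressed replicate 3 or PI365967 salt replicate 1 (−1.98 to −1.83). Of 8 heat shock probe sets, 2 (25%, against 13.2% of all) were called, and the list's median was 0.00. The other was MTSHP, which encodes a mitochondrial small heat shock protein and rose by 2.56 and 1.20 (difference −1.35 ± 0.29, adjusted p = 0.0119). Its unstressed level was higher in PI365967 by 1.17 (adjusted p = 0.00111). With salt the genotype difference of MTSHP was −0.19 and did not pass (adjusted p = 0.486). The small heat shock genes HSP17-6, HSP21 and ER-SHSP had differences of 0.36, 0.29 and 0.16, and none passed. Nor did that of vis1, of the same list, at −0.46 (adjusted p = 0.438).

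LysRS, a lysyl-tRNA synthetase gene, read 8.40, 8.79 and 7.86 without and 11.49, 11.77 and 11.10 with salt in Moneymaker. In PI365967 it read 9.60, 9.74 and 9.47 without and 10.04, 9.81 and 10.08 with salt. Before salt PI365967 was the higher genotype, by 1.25, and after salt the genotype difference was −1.48. The gene rose by 3.11 in Moneymaker, while the effect of 0.37 in PI365967 did not pass (adjusted p = 0.187). The difference was −2.73 ± 0.31 (adjusted p = 0.000368), and −2.03 after slope adjustment (adjusted p = 0.00166).

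Ion transport genes split in direction. Of 7 probe sets, 2 were called higher and 2 lower (57.1%, against 13.2% of all). The same numbers were called after slope adjustment, against 4.66% higher and 5.56% lower of all. Without normalization LHA1 alone was called. LHA1 and LHA2 encode plasma membrane proton pumps, which energise the exchange of sodium for protons. LHA1 read 10.68, 10.73 and 10.64 without and 10.75, 10.90 and 10.66 with salt in Moneymaker. PI365967 gave 10.81, 10.83 and 10.82 without and 12.26, 12.17 and 11.94 with salt. The 9 arrays other than the PI365967 salt arrays lay within 10.64 to 10.90, and the PI365967 salt arrays were all above them. LHA1 rose by 1.30 in PI365967, and its effect of 0.09 in Moneymaker did not pass (adjusted p = 0.413). The difference was 1.21 ± 0.13 (adjusted p = 0.00027), and 1.23 after slope adjustment (adjusted p = 0.000213). LHA2 fell by 0.51 in Moneymaker and had an effect of −0.10 in PI365967 (difference 0.42 ± 0.10, adjusted p = 0.0161), a call lost with median centring (0.27).

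LKT1 encodes an inward potassium channel, known from Arabidopsis to take up potassium in roots. It read 7.57, 7.31 and 7.55 without and 8.59, 8.17 and 8.18 with salt in Moneymaker, and 8.79, 8.43 and 8.44 without and 8.02, 8.10 and 8.05 with salt in PI365967. The genotypes were apart without salt, with PI365967 above by 1.08. Under salt all Moneymaker arrays were above the PI365967 arrays, by a margin that did not pass the test (−0.26, adjusted p = 0.137). LKT1 rose by 0.84 in Moneymaker and fell by 0.49 in PI365967, so that the effects differed by −1.33 ± 0.19 (adjusted p = 0.00122), or −1.14 after slope adjustment (adjusted p = 0.00257). LCA1, a calcium ATPase gene, rose by 0.40 in Moneymaker, and its effect of −0.22 in PI365967 did not pass. The difference of −0.62 ± 0.15 was called (adjusted p = 0.0177). The vacuolar exchanger genes NHX1 and NHX2 had differences of −0.29 (adjusted p = 0.324) and −0.25 (adjusted p = 0.49), with rises of NHX1 by 1.67 and 1.38. The kinase gene SOS2 had a difference of 0.11 (adjusted p = 0.566).

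Other genes with opposite salt calls act in lipid signalling, in carbon metabolism and on RNA. PLDb1 and PLDa3 encode phospholipases D, which release phosphatidic acid from membranes. PLDb1 read 9.33, 9.70 and 9.13 without and 10.59, 10.23 and 10.24 with salt in Moneymaker, and 9.16, 9.19 and 8.88 without and 8.22, 8.47 and 8.62 with salt in PI365967. It overlapped between genotypes before salt, then moved up in Moneymaker and down in PI365967. The effects of 0.96 and −0.64 differed by −1.61 ± 0.23 (adjusted p = 0.00129). PLDa3 went the other way, with effects of −0.30 and 0.53 (difference 0.82 ± 0.13, adjusted p = 0.00242). In the authors' second log2 values its Moneymaker effect was 0.04 and not a fall, and the difference was 0.55. RDRP, an RNA-dependent RNA polymerase gene of the RNA silencing machinery, read 8.56, 8.43 and 8.77 without and 9.12, 8.96 and 9.05 with salt in Moneymaker. In PI365967 it read 9.17, 9.48 and 9.23 without and 8.30, 8.12 and 8.50 with salt. PI365967 was the higher genotype without salt and the lower one with salt. The effects of 0.46 and −0.99 differed by −1.44 ± 0.17 (adjusted p = 0.000468).

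PPCK1 and PPCK2 encode kinases that activate phosphoenolpyruvate carboxylase. PPCK1 read 9.47, 9.19 and 9.53 without and 11.06, 10.57 and 10.85 with salt in Moneymaker, and 7.56, 7.35 and 6.95 without and 9.55, 9.74 and 9.88 with salt in PI365967. Moneymaker stayed above PI365967 in both conditions, but the gap narrowed from −2.11 to −1.10. It rose by 1.43 and 2.44, a difference of 1.01 ± 0.24 (adjusted p = 0.0191) and 1.33 after slope adjustment (adjusted p = 0.00377). PPCK2 rose by 0.28 in Moneymaker and fell by 0.43 in PI365967 (difference −0.71 ± 0.14, adjusted p = 0.0092). SNF4, a subunit of the SnRK1 energy-sensing kinase, rose in both genotypes, by 3.96 and 4.19, and at least 13.8-fold in Moneymaker, where its unstressed arrays lay at background. Its plain difference of 0.23 ± 0.20 did not pass (adjusted p = 0.488), and its slope-adjusted difference of 1.13 did (adjusted p = 0.00358). That call was lost with a pseudocount of 1 (0.85, adjusted p = 0.0529) and with the slope of 0.962 (0.39, adjusted p = 0.233). Both differences would be smaller if the Moneymaker level without salt, which lies at background, were lower. In the authors' second set of log2 values SNF4 rose by 5.29 and 4.88, a difference of −0.40.

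Genes of solute metabolism were called in both directions, with 3 higher and 4 lower among 25 probe sets (28%, against 13.2% of all) and a median of 0.01. Without normalization none of them was called. BMY3, a beta-amylase gene that frees maltose from starch, had a lower effect in PI365967 on all 3 of its probe sets, at −0.74 ± 0.15, −0.70 and −0.68. The last of these calls was lost without any 1 of 8 arrays (−0.70 to −0.56). None of the 3 was called beyond the slope. The hexose transporter gene HT1 rose by 1.28 and 0.46 (difference −0.83 ± 0.14, adjusted p = 0.00333). Of the inositol monophosphatase genes, IMP3 fell by 0.85 in Moneymaker and 0.34 in PI365967 (difference 0.51). IMP1 fell by 0.80 in Moneymaker, and its effect of −0.09 in PI365967 did not pass (adjusted p = 0.648; difference 0.72). The IMP1 call did not survive the omission of any 1 of 8 arrays (0.59 to 0.73) and the IMP3 call without 1 array (0.46). The proline transporter gene ProT2 rose by 0.83 in PI365967 alone, and its call (difference 0.80 ± 0.22) was lost without any 1 of 9 arrays (0.67 to 0.82). The galactinol synthase gene GolS-1 rose by 4.53 in Moneymaker and 4.45 in PI365967 (difference −0.08, adjusted p = 0.918).

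Of 23 probe sets for antioxidant enzymes, 2 were called lower and 1 higher, a share of 13% beside 13.2% of all probe sets. AOX1a, the alternative oxidase of mitochondria, read 10.47, 10.55 and 10.39 without and 12.78, 12.72 and 12.57 with salt in Moneymaker, and 11.27, 11.33 and 11.26 without and 12.22, 12.30 and 12.23 with salt in PI365967. It was higher in PI365967 before salt and higher in Moneymaker after it, with no overlap. The rises of 2.22 and 0.96 differed by −1.26 ± 0.11 (adjusted p = 7.98e-05). GST-T4, a glutathione transferase gene, was called at −0.71 ± 0.21, which was lost without any 1 of 11 arrays (−0.79 to −0.55). The call of the dehydroascorbate reductase gene DHAR1 (0.50 ± 0.12) was lost with median centring (0.40) and without PI365967 unstressed replicate 1 (0.45), and its other probe set, at 0.40, did not pass. FESOD, an iron superoxide dismutase gene, has probe sets that disagree. The dimmer one rose by 3.14 and 3.76 and exceeded the slope in PI365967 by 1.33 (adjusted p = 0.00711), while its plain difference of 0.62 did not pass (adjusted p = 0.16). With the slope of 0.962 the excess was 0.74 (adjusted p = 0.0967). The brighter one, at 12.54 without salt in Moneymaker, fell by 0.59 and 0.25, and neither its plain difference (0.34, adjusted p = 0.107) nor its slope-adjusted difference (0.21, adjusted p = 0.291) passed.

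Of 50 cell wall probe sets, 10 were called higher in PI365967 and 1 lower, and the other 39 were not called. The called share was 22%, against 13.2% of all probe sets (6.15% higher and 7.09% lower), and the median difference was 0.27 against 0.04. Without normalization 5 were called, all of them higher. Of the 10 higher calls, EXPA10 rose in both genotypes, and the others fell in Moneymaker. In Moneymaker 28 of the 50 fell under salt, and in PI365967 23 fell. After adjustment for the slope, 5 were higher and 4 lower. Expansins loosen the wall during growth. EXP5 read 11.16, 11.19 and 10.99 without and 8.77, 8.79 and 9.03 with salt in Moneymaker, and 11.04, 10.78 and 11.01 without and 10.30, 10.10 and 10.11 with salt in PI365967. The genotypes overlapped before salt and were apart after it, when all Moneymaker arrays were lower. EXP5 fell by 2.25 in Moneymaker and 0.77 in PI365967, so that the effects differed by 1.47 ± 0.15 (adjusted p = 0.00022; slope-adjusted 0.96, adjusted p = 0.00183). EXP1 fell by 2.03 and 0.69 (difference 1.34 ± 0.20, adjusted p = 0.00188). EXP2 fell by 2.11 and 1.08 (difference 1.04 ± 0.27), a call lost without any 1 of 7 arrays (0.85 to 1.05).

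PMEU1, a pectin methylesterase gene, fell by 1.26 and 0.42 (difference 0.84 ± 0.11, adjusted p = 0.000757). Xyloglucan endotransglucosylase/hydrolases cut and rejoin the wall's hemicellulose. Of these, XET2 (1.24 ± 0.35), XTH7 (0.98), XTH1 (0.67) and XTH6 (0.65) fell less in PI365967 or fell in Moneymaker alone. XTH16 fell more there on its called probe set (−0.69, lost without any 1 of 3 arrays, −0.69 to −0.67), and all 3 of its probe sets were lower after slope adjustment, at −0.89 to −1.14. The XET2 call did not survive the omission of any 1 of 9 arrays (1.04 to 1.29), the XTH7 call without 1 array (0.91), and the XTH1 call without any 1 of 9 (0.56 to 0.70) and with median centring (0.48). TBG6, a beta-galactosidase gene, differed by 0.66, a call lost without any 1 of 10 arrays (0.55 to 0.72) and with median centring (0.62). EXPA10 rose in both genotypes, by 1.1 and 1.90. Its plain difference of 0.80 ± 0.24 was lost without any 1 of 11 arrays (0.58 to 0.87) and with median centring (0.83), and its slope-adjusted difference was 1.05 (adjusted p = 0.012). The endoglucanase gene cel7 fell by 1.97 and 2.30, a slope-adjusted difference of −0.78 (adjusted p = 0.00711). TBG4 rose by 2.00 and 2.43, exceeding the slope by 0.89 (adjusted p = 0.0379).

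Genes with a lean towards roots, a list of nutrient transporters, iron-uptake genes and peroxidases, had 3 of 10 probe sets called higher in PI365967 and none lower (30%, against 13.2% of all). Their median difference was 0.19. TPX2, a peroxidase gene, had the largest positive difference of a named gene. It read 10.02, 10.20 and 10.20 without and 7.13, 7.08 and 7.34 with salt in Moneymaker. The values in PI365967 were 9.57, 9.23 and 9.27 without and 8.42, 9.29 and 8.95 with salt. All Moneymaker salt arrays were far below every other array, and the PI365967 groups overlapped. TPX2 fell by 2.96 in Moneymaker, and its effect of −0.47 in PI365967 did not pass (adjusted p = 0.0543). The difference was 2.49 ± 0.26 (adjusted p = 0.000268), and 1.81 after slope adjustment (adjusted p = 0.00117). AMT1-2, an ammonium transporter gene, fell by 2.04 and 0.95 (difference 1.09 ± 0.14, adjusted p = 0.0007). PT2, a phosphate transporter gene, fell by 3.08 and 1.56 (difference 1.52 ± 0.43, adjusted p = 0.0401), a call lost without any 1 of 8 arrays (1.24 to 1.62).

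The mean level of the 10 root-leaning probe sets went from 10.38 (range over arrays 10.34 to 10.40) to 9.21 (9.16 to 9.25) in Moneymaker under salt. In PI365967 it went from 10.14 (10.10 to 10.18) to 9.52 (9.46 to 9.59). These means include TPX2, PT2 and AMT1-2. Over the other 7 probe sets the mean salt effect was −0.51 in Moneymaker and −0.46 in PI365967. The genes left out were those with a called difference, so closer means in the rest follow in part from that choice. The same holds for the photosynthesis genes below. The 8 photosynthesis probe sets went from 13.02 (12.89 to 13.14) to 12.36 (12.26 to 12.42) in Moneymaker and from 13.27 (13.24 to 13.28) to 13.00 (12.95 to 13.02) in PI365967. Without the called PETE and PSBP the mean effects of the other 6 were −0.60 and −0.29. The part of organ composition in the differences of wall, root-leaning and photosynthesis genes was not tested. Of the photosynthesis probe sets, 2 (25%, against 13.2% of all) were called higher in PI365967 and none lower, with a median of 0.36. The median was 0.17 with median centring, and no probe set was called without normalization. PETE, the plastocyanin gene, read 12.32, 12.10 and 12.55 without and 11.19, 11.39 and 11.13 with salt in Moneymaker, and 12.84, 12.77 and 12.88 without and 12.66, 12.57 and 12.50 with salt in PI365967. All salt arrays were below the unstressed arrays of the same genotype. PETE fell by 1.09 in Moneymaker, and its effect of −0.25 in PI365967 did not pass (difference 0.83 ± 0.16, adjusted p = 0.0064). PSBP, a protein of the oxygen-evolving complex, differed by 0.46 ± 0.11 (adjusted p = 0.0167), a call lost with median centring (0.26).

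**Figure D4:**
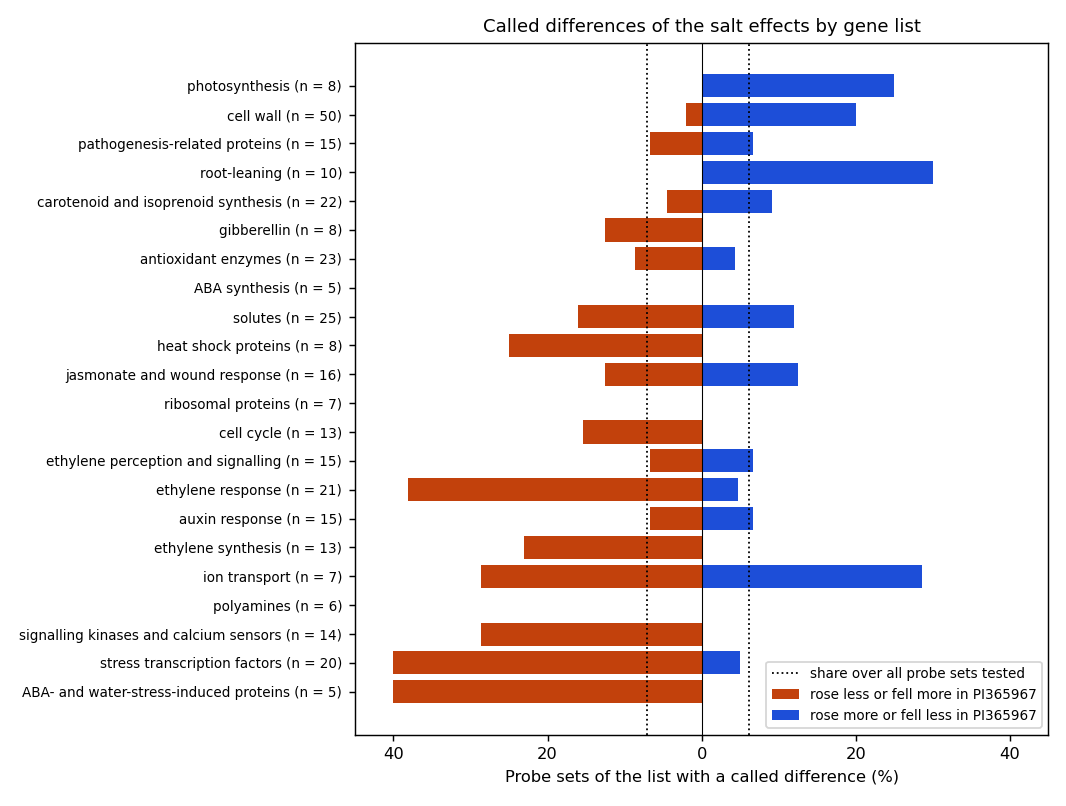
Share (%) of each gene list's probe sets with a called difference of salt effects, for lower effects in PI365967 (orange, to the left) and higher effects (blue, to the right), ordered by the list's median difference. The dotted lines mark the shares over all probe sets, 7.09% lower and 6.15% higher. Lower calls lead among stress transcription factors and ethylene-responsive genes, and higher calls among cell wall, root-leaning and photosynthesis genes. Lists of under 10 probe sets change by over 10 percentage points with 1 probe set.

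Of 13 cell cycle probe sets, 2 were called, a share of 15.4% beside 13.2% of all probe sets, and the list's median was −0.07. Both fell more in PI365967. CDKB2, a cyclin-dependent kinase active in dividing cells, read 7.90, 7.96 and 8.17 without and 7.23, 7.52 and 7.33 with salt in Moneymaker. In PI365967 it read 8.49, 8.52 and 8.87 without and 7.17, 7.40 and 7.03 with salt. It was higher in unstressed PI365967 and overlapped between genotypes under salt. It fell by 0.65 and 1.43, a difference of −0.78 ± 0.19 (adjusted p = 0.0206) that was lost without Moneymaker unstressed replicate 1 (−0.73). CycA1, an A-type cyclin gene, fell by 0.40 and 1.05 (difference −0.65 ± 0.15, adjusted p = 0.0143). The cyclin-dependent kinase inhibitor gene krp2 rose by 1.34 and 1.64, exceeding the slope by 0.61 (adjusted p = 0.00784).

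Among hormone genes of growth, the gibberellin 20-oxidase gene 20ox-3 was called among 8 gibberellin probe sets (12.5%, beside 13.2% of all). It read 5.45, 5.59 and 5.06 without and 5.07, 5.14 and 4.70 with salt in Moneymaker, and 6.56, 6.55 and 6.78 without and 4.05, 4.22 and 4.69 with salt in PI365967. Unstressed PI365967 was higher than every other group, and the gene was at background in both salt groups. It fell at least 2.94-fold in PI365967, and its effect of −0.40 in Moneymaker did not pass. The difference was −1.92 ± 0.26 (adjusted p = 0.00103), a value set in part by where background lies. Of 15 auxin probe sets, 1 was called higher and 1 lower, also a share of 13.3%. ARF3 differed by 0.60 ± 0.14 (adjusted p = 0.0187), a call lost with median centring (0.48), and in the authors' second set of log2 values its difference was −0.11. Its means without and with salt were 8.34 and 7.98 in Moneymaker. In PI365967 they were 5.47 and 5.72, near background, where a fall can show only in part. Its other probe set differed by −0.08. IAA7, an Aux/IAA repressor gene, differed by −0.59 ± 0.18, a call lost with median centring (−0.57) and without any 1 of 11 arrays (−0.63 to −0.44), and in the authors' second log2 values it differed by −0.28. IAA27, of the same family, fell by 0.52 and 1.17 on 1 probe set, which was lower after slope adjustment (−0.77, adjusted p = 0.0252), while its other probe set was not (−0.11, adjusted p = 0.805).

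In carotenoid and isoprenoid synthesis, 2 of 22 probe sets were called higher and 1 lower, a share of 13.6% beside 13.2% of all. Psy1, the phytoene synthase gene, rose by 0.48 in Moneymaker and 1.35 in PI365967 with a genotype difference of −2.47 before salt (difference 0.86 ± 0.20, adjusted p = 0.0177). Its other probe sets differed by −0.32 and 0.33, which did not pass. HMGR, the enzyme that commits carbon to cytosolic isoprenoids, read 9.14, 9.60 and 9.80 without and 9.21, 8.92 and 9.10 with salt in Moneymaker, and 8.96, 8.86 and 9.14 without and 7.77, 7.61 and 7.54 with salt in PI365967. The Moneymaker groups overlapped, while the PI365967 salt arrays were below all others. Its effects of −0.44 and −1.35 differed by −0.91 ± 0.22 (adjusted p = 0.0194), and by −0.53 in the authors' second log2 values. CCD1B, a carotenoid cleavage dioxygenase gene, differed by 0.39 ± 0.10, a call lost with median centring (0.33) and without any 1 of 8 arrays (0.34 to 0.40). CrtR-b1, a carotene hydroxylase gene, rose by 1.51 and 1.84, exceeding the slope by 0.67 (adjusted p = 0.00906).

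Pathogenesis-related proteins had 1 higher and 1 lower call among 15 probe sets (13.3%, beside 13.2% of all). After slope adjustment 3 were higher, against 4.66% of all probe sets. The 3 were chitinase genes. CHI3 rose by 0.34 and 1.07 (difference 0.73 ± 0.17, adjusted p = 0.0172; lost with median centring, 0.46), and CHI14 and CHI17 each exceeded the slope by 0.84 (adjusted p = 0.0137 and 0.0344). PR1b1 was called at −0.87 ± 0.26 on a probe set at background in 3 groups, a call lost without any 1 of 11 arrays (−0.98 to −0.65). Its brighter probe set differed by −0.30 (adjusted p = 0.825). No probe set was called among 6 for polyamine synthesis (arginine and ornithine decarboxylases) and 7 for ribosomal proteins, against 13.2% of all. The medians of these short lists were −0.28 and −0.06.

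A few further named genes stood among the largest differences without belonging to a list. SPE4 read 8.39, 8.43 and 8.11 without and 8.28, 8.50 and 8.06 with salt in Moneymaker, where the groups overlapped. It read 8.86, 8.72 and 8.54 without and 7.10, 7.11 and 7.43 with salt in PI365967, where all salt arrays were lower. The difference was −1.46 ± 0.20 (adjusted p = 0.000984). CEVI57 rose by 1.54 in PI365967 with a genotype difference of −5.20 before salt, and its call (difference 1.35 ± 0.39) was lost with median centring (1.14) and without any 1 of 9 arrays (1.28 to 1.43). The probe set of cevi19, whose probes may also bind related transcripts, fell by 2.87 and 1.72 (difference 1.15 ± 0.14, adjusted p = 0.000553). The gene rnalx, encoding ribonuclease LX, rose by 0.70 and 1.72 (difference 1.02 ± 0.26), a call lost without any 1 of 6 arrays (0.84 to 1.04).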

How the data were processed

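RNA of 12 pools of whole tomato plants was hybridised to an Affymetrix tomato array. The authors deposited 1 linear intensity per probe set and array, and how background was corrected and probes were summarised is not stated in any source used here. Array medians ran from 332.8 to 633.2. The authors further deposited log2 values for some of the probe sets, and no source used here states how they were made. These came with the authors' SAM comparisons of salt with unstressed arrays and served as an alternative for the 8074 probe sets given for both genotypes. No SAM test result was used here.

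Intensities became log2(value + 16) with a pseudocount of 16 and were quantile normalized over the 12 arrays. The 108 control probe sets were left out, which kept 10101. A group-means model was fitted with limma 3.58.1 in R 4.3.3 (lmFit and eBayes, two-sided; 8 residual and 3.11 prior degrees of freedom), and p-values were adjusted over all probe sets at 0.05. The slope came from total least squares through the origin and was held fixed in the slope-adjusted contrast. Steps were tested on simulated data. The number of arrays limits the precision, with a median standard error of 0.161. GEO's platform annotation gives a gene symbol to 909 probe sets, 702 of them with a gene name, and 9192 have none.

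Genes were named by a rule: the 12 largest called differences each way, the 8 largest slope-adjusted differences each way, up to 10 with opposite salt calls, and up to 3 called members of each of 22 gene lists. Outside the lists, the brightest probe set represented a gene that had more than 1. Other list members are cited as context. The comparison, the lists and the rule were chosen with earlier results of these data known, and list members were set by symbol once the annotation was read. Replicate numbers were checked for pairing: deviations from group means of same-numbered arrays correlated at −0.13 to 0.16, with 4 of 18 pairs above 0.1, namely all 3 pairs of unstressed arrays of the genotypes (0.12 to 0.16) and 1 pair of Moneymaker arrays (0.11), so the numbers were not taken to pair the samples of the 4 groups. Alternatives were other normalizations, pseudocounts, a filter on dim probe sets, a replicate block, trended moderation, other slopes and leaving out each array.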

Additional observations from a re-analysis of the deposited data

Results flagged for a closer look

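These results were picked out because the salt effects of the genotypes differ by a test of the difference itself, and for named genes because each genotype also had a called salt effect of opposite sign. Over all probe sets, the difference was called on 1337. PLDb1 differed by −1.61, with a rise in Moneymaker and a fall in PI365967 that left the groups of each genotype without overlap. PTI6 differed by −1.55, RDRP by −1.44 and LKT1 by −1.33, each with the same directions as PLDb1. PPCK2 differed by −0.71, also up in Moneymaker and down in PI365967. PLDa3 differed by 0.82, down in Moneymaker and up in PI365967, whereas in the authors' second log2 values its Moneymaker effect was 0.04 and the difference 0.55. The interactions of LKT1, RDRP, PLDa3 and PPCK2 did not pass with no normalization between arrays. Outside the probe sets tested, the 3′ control probe set listed as GlutTrans differed by −0.54.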

How the results depend on the processing

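With no normalization between arrays, 292 probe sets were called for the difference, 229 for the slope-adjusted difference and 8 as opposite calls, at a slope of 0.726, and the cause was not tested. The slope was 0.674 by ordinary least squares, 0.81 from probe sets called alike in both genotypes and 0.962 with the Moneymaker effect as the response, the last chosen after seeing the data. The slope-adjusted count with these slopes was 1071, 1018 and 1238. Leaving out 1 array at a time gave 929 to 1376 calls of the difference, 630 to 1021 slope-adjusted calls, 43 to 92 opposite calls and slopes of 0.745 to 0.79, with fewer samples in each fit. The replicate block, over numbers not taken to pair the 4 groups, gave 1199 calls of the difference, 903 slope-adjusted calls and 68 opposite calls, and PT2, CEVI57, rnalx, TSW12, TomloxE, PR1b1, CDPK1, GST-T4 and IAA7 were not called with it. For the unstressed genotypes alone, whose same-numbered arrays all correlated above 0.1, it moved the called share from 36.8% to 36.2%. For single genes, the difference kept its direction and side of the threshold in 587 of 732 omissions of an array and dropped below it in 145. Under the other settings it was counted as kept in 473 of 543 values and as dropped below in 68. These include the 59 values from the authors' second log2 values, which have no test and so no side of the threshold. Called genes counted as kept there if the sign held, and the uncalled SNF4 counted as kept although its sign turned. In the authors' second log2 values, with no test, ARF3 reversed to −0.11 and the uncalled SNF4 to −0.40, and of 59 named genes found there 4 moved by over 1.5 times, EIL2 to 0.14, TomloxE to 0.40, IAA7 to −0.28 and HMGR to −0.53. The Moneymaker effects of PLDa3 (0.04) and IAA7 (−0.19) changed sign there, while 1224 of 1235 called probe sets found there (99.1%) had the same sign. The slope-adjusted difference kept its side in 637 of 732 omissions and 432 of 484 other values. List medians, less the median of all probe sets, kept their sign under the 4 scalings for 20 of 22 lists, and those for ABA synthesis and gibberellin did not. Probe sets near background (487 in all groups) can show only part of a change, and sequence differences of PI365967 under the probes were not tested.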

Other observations

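Among probe sets without a gene name, the largest negative difference was −3.92 ± 0.36 (adjusted p = 0.000126). Its group means were 5.02 and 9.19 without and with salt in Moneymaker, and 5.10 and 5.34 in PI365967. The next had means of 4.85 and 10.85 in Moneymaker and 5.23 and 7.91 in PI365967, so that the salt effects differed by −3.32 ± 0.32 (adjusted p = 0.000179). On the other side, the largest difference was 2.26 ± 0.17 (adjusted p = 6.18e-05), with means of 8.41 and 4.22 in Moneymaker, the latter at background, and 7.99 and 6.06 in PI365967. The next had means of 10.02 and 5.22 in Moneymaker and 10.98 and 8.43 in PI365967, and a difference of 2.24 ± 0.22 (adjusted p = 0.000179).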
